A study of Mus musculus with 6 samples.

Results

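De novo lipogenesis, the cytosolic synthesis of fatty acids from acetyl-CoA, was examined through 10 genes, Acaca, Acacb, Fasn, Acly, Me1, Thrsp, Mlxipl, Srebf1, Slc25a1 and Acss2, chosen by name from the 55039 genes listed in the deposited count and FPKM tables. All 10 were found, and all 10 were among the 17296 genes that passed edgeR's filter on low counts. The tissue was epididymal white adipose tissue (eWAT) of male C57BL/6 mice, aged 6 to 7 weeks at the start. In the cachexia group (CAC, n = 3) the mice had been injected under the skin with LLC cells, a mouse Lewis lung carcinoma line, and in the control group (CONT, n = 3) with PBS alone. The fat was taken 28 days after injection, and 1 poly(A) RNA library was made from each mouse. The libraries are of whole tissue, in which fewer cells of a type and less RNA per cell cannot be told apart.

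In this pathway, citrate leaves the mitochondrion through the carrier Slc25a1 and is split by Acly into acetyl-CoA and oxaloacetate, while Acss2 makes acetyl-CoA from acetate. Acetyl-CoA carboxylase then forms malonyl-CoA, and Fasn builds palmitate from it with NADPH, part of which comes from the malic enzyme Me1. The acetyl-CoA carboxylase encoded by Acaca works in the cytosol and feeds synthesis, whereas that encoded by Acacb sits on the outer mitochondrial membrane, where its malonyl-CoA restrains the entry of fatty acids for oxidation through Cpt1. Srebf1 encodes SREBP1, driven by insulin and LXR, and Mlxipl encodes ChREBP, driven by glucose, and both transcription factors switch on these enzymes in liver and fat.

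The libraries held 15713794 to 25926425 counts, and 1 CPM (read counts scaled to the TMM-adjusted library size) stood for 11.2 to 26.5 reads, so that the least abundant member value, 884 reads of Acss2, was far from the counting floor. CONT replicate 1 stood apart: genes of the mitochondrial genome took 30.2% of its counts and 3.89 to 5.04% of those in the other 5 libraries. Its counts also ran with gene length, since its log2 CPM relative to the mean of the other CONT libraries had a median of 0.72 in 1328 genes of up to 2000 bases and of -0.51 in 1481 genes above 9000 bases. Adipocyte markers were abundant in every library, with a summed level of 18690 to 39335 CPM over 10 genes in CONT and of 17251 to 36518 CPM in CAC. The median log2 fold change of these 10 markers was -0.21, and Pnpla2, the triglyceride lipase ATGL, was the 1 marker with an unadjusted p under 0.05 (edgeR). Pnpla2 was higher in CAC, with a log2 fold change of 1.36 and no overlap (adjusted p 0.238 in edgeR and 5.3e-06 in DESeq2). Macrophage markers summed to 458, 1393 and 1394 CPM in CONT replicates 1 to 3 and to 613 to 965 CPM in CAC. Markers of skeletal muscle, a tissue rich in Acacb, summed to 9.37 to 47.0 CPM in CONT and 14.0 to 49.5 CPM in CAC, and Ucp1, which defines brown fat, had at most 6 reads in any library. Epididymis and testis markers differed widely, from 169 to 6146 CPM in CONT and from 0 to 905 CPM in CAC. The median log2 fold changes were -1.36 for B and plasma cells, -0.53 for T cells, -0.58 for fibroblasts, -0.47 for mesothelium, 0.26 for endothelium, 0.57 for liver, 0.89 for brown or beige fat, 0.82 for skeletal muscle, 0.40 for epididymis and testis and -0.44 for macrophages. These medians cover tested markers only, 3 of 8 for epididymis and testis (Prm1, Prm2 and Tnp1), which overlapped between the groups. The other markers of that list were not tested and had higher means in CONT, such as Crisp1 with 38.7 CPM in CONT and 0 CPM in CAC. Of the 4 tested markers of brown or beige fat, Cox7a1 alone had an unadjusted p under 0.05 (edgeR). It was lower in CAC, with a log2 fold change of -1.75 and no overlap. The part of these cell types in the results below was not tested.

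Of the 10 genes, 8 were lower and 2 were higher in CAC. Their median log2 fold change was -0.66, against -0.06 over all 17296 genes, of which 54.1% were lower. Acacb was the outstanding exception, at 5.68 times its CONT level, and Mlxipl was the other higher gene. Every CAC library lay below every CONT library in 4 of the 10 genes, Acly, Acss2, Me1 and Slc25a1 (background over all genes 10.7%), and above in 1, Acacb (background 11.8%, or 22.5% in both directions). In edgeR's quasi-likelihood test the same 5 genes reached an unadjusted p under 0.05, 4 lower (background 6.95%) and 1 higher (background 6.31%, or 13.3% in both directions). None had an adjusted p under 0.05 (0 of 10, as 0% of all genes). DESeq2, the tool of the study, gave an adjusted p under 0.05 to 2 lower genes, Acly and Me1 (background 2.55%), and to 1 higher gene, Acacb (background 3.25%, or 5.8% in both directions), while voom with sample quality weights called 3 genes, Acacb, Acly and Acss2 (background 5.51%). With each of the 6 libraries left out in turn, DESeq2 kept its call of Acacb in 6 of 6 fits, that of Me1 in 2, without CONT replicate 3 or CAC replicate 1, and that of Acly in 1, without CONT replicate 1. Without CONT replicate 1 the CAC libraries lay below the CONT libraries in 6 genes, Acaca and Fasn added (background 19.6%), and above them in 1 (background 18.1%). An unadjusted p under 0.05 was then found in 5 lower genes (background 8.28%), Acaca, Fasn, Acly, Me1 and Acss2, and in 1 higher gene (background 7.3%, or 15.6% in both directions). With another library left out, the number of genes with such a p was 2 without CONT replicate 2 (background 9.3%), 4 without CONT replicate 3 (background 9.25%) and 5 without CAC replicate 1 (background 11.7%). It was 2 without CAC replicate 2 (background 7.24%) and 3 without CAC replicate 3 (background 8.32%). The exact permutation test (two-sided) of single genes has 0.1 as its smallest p at 3 against 3 mice, which was the value of each gene without overlap.

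**Figure D1:**
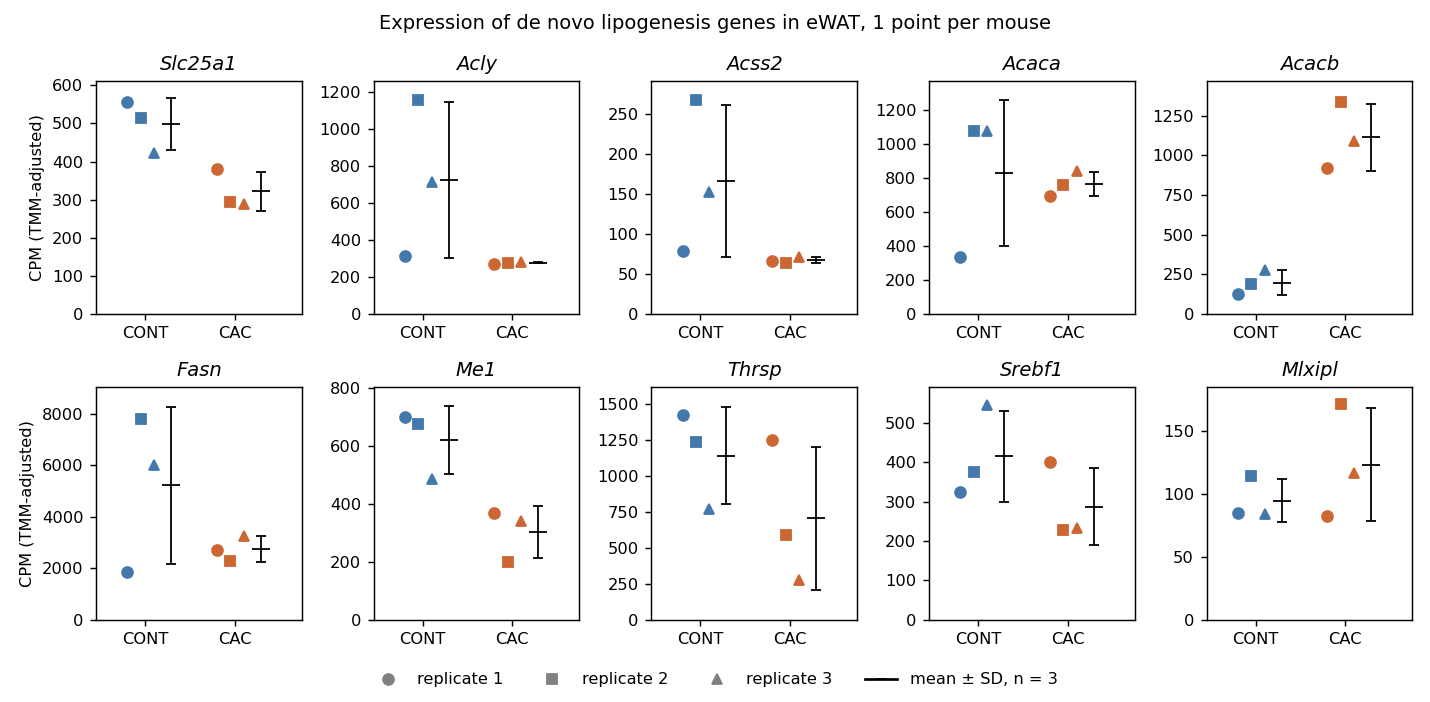
Expression of the 10 genes by library, in CPM on the TMM-adjusted library size (vertical axes start at 0), with the mean and SD of each group beside the points. Acacb is higher in all 3 CAC libraries, while Slc25a1, Acly, Acss2 and Me1 are lower in all 3, and CONT replicate 1 (circles) is the lowest CONT library for Acly, Acss2, Acaca, Acacb, Fasn and Srebf1.

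Slc25a1, Acly and Acss2, which supply cytosolic acetyl-CoA, were lower in every CAC library than in every CONT library, and edgeR called none of them. The adjusted p in DESeq2 was 0.095 for Slc25a1, 0.044 for Acly and 0.053 for Acss2. Slc25a1, the mitochondrial citrate carrier (chromosome 16 from 17925223 to 17928219, minus strand, GRCm38), stood at 557, 515 and 422 CPM in the CONT libraries and at 382, 294 and 289 CPM in the CAC libraries. All 3 CAC values were below the lowest CONT value, that of replicate 3. In edgeR this was a log2 difference of -0.63 ± 0.24 (standard error), with an unadjusted p of 0.036 and an adjusted p of 0.348. Acly, ATP citrate lyase (chromosome 11 from 100476353 to 100528000, minus strand), stood at 310, 1155 and 710 CPM in CONT and at 271, 276 and 278 CPM in CAC. The CAC libraries were nearly equal (SD 3.36 CPM, n = 3) while the CONT libraries were spread (SD 423 CPM, n = 3), and the groups were separated only by the gap between CONT replicate 1 and CAC replicate 3. With an adjusted p of 0.305 in edgeR, its log2 fold change was -1.40 ± 0.47 (standard error), the most negative of the 10, and ran from -1.74 without CONT replicate 1 to -0.89 without CONT replicate 2. Acss2, the cytosolic acetyl-CoA synthetase (chromosome 2 from 155517948 to 155585724, plus strand), stood at 78.8, 268 and 153 CPM in CONT and at 66.4, 63.8 and 71.2 CPM in CAC. Again the CAC libraries were close together and CONT replicate 1 lay just above them. With an adjusted p of 0.301 in edgeR, its log2 fold change was -1.31 ± 0.43 (standard error), and -0.79 without CONT replicate 2. Acss2 overlaps Gss and Ggt7 on the other strand, which held 2931 and 714 reads against 15467 for Acss2 over the 6 libraries, and the strand setting of the counting is not given in the sources used here.

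Acly and Acss2, which make the same product from different substrates, had the most similar profiles of the 45 pairs among the 10 genes. Their log2 CPM, each centred on its own CONT mean, differed by a root mean square of 0.09 over the 6 libraries, whereas the next closest pair, Srebf1 and Slc25a1, differed by 0.37. The pair was picked by this closeness in these libraries, so it is a description with no test. Their upstream sequences are shown because of this shared profile. They are the 150 bases before the RefSeq start (GRCm38.p6), at chr11:100528001-100528150 on the minus strand for Acly and at chr2:155517893-155518042 on the plus strand for Acss2, written 5′ to 3′ in the direction of the gene, with capitals marking GC boxes (GGGCGG, searched on both strands) and the CCAAT box (CCAAT, both strands).
Acly: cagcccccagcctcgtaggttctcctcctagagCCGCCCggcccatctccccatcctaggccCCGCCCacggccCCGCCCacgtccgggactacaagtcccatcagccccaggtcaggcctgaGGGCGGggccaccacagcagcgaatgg
Acss2: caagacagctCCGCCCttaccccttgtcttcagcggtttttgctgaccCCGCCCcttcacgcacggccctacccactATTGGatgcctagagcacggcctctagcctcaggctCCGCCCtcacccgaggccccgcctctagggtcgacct
Both windows hold several GC boxes, 4 in Acly and 3 in Acss2, and Acss2 also has a CCAAT box on the other strand, 73 bases before the start. Over all 32851 windows of this length in the table, 28.6% hold a GC box and 24.5% a CCAAT box, so these matches are common and describe the letters alone.

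Of the acetyl-CoA carboxylase genes, Acacb was far higher in CAC and Acaca overlapped between the groups. Acaca (chromosome 11 from 84129672 to 84401651, plus strand) stood at 331, 1077 and 1078 CPM in CONT and at 695, 758 and 839 CPM in CAC. The CAC libraries were within the wide CONT range, whose low end was CONT replicate 1 alone. Its fitted log2 fold change was -0.12 (standard error 0.47, 95% confidence interval -1.23 to 1.00, adjusted p = 0.938 by edgeR), an interval wide enough to hold differences in either direction. Without CONT replicate 1 edgeR gave -0.48 ± 0.19 (standard error), at an unadjusted p of 0.0498 and an adjusted p of 0.321 (DESeq2 -0.45, adjusted p 0.014), with every CAC library below both remaining CONT libraries, and without CONT replicate 2 or 3 it was 0.12 or 0.13. In CONT replicate 1 Acaca lay 1.70 below the mean of the other CONT libraries on the log2 CPM scale, further than the median of -0.51 among genes above 9000 bases.

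Acacb (chromosome 5 from 114146535 to 114250761, plus strand) stood at 123, 187 and 279 CPM in CONT and at 919, 1339 and 1089 CPM in CAC. The lowest CAC library was more than 3 times the highest CONT library, and the spread within each group was small beside the gap. The log2 fold change was 2.50 (standard error 0.38, 95% confidence interval 1.60 to 3.41), with an unadjusted p of 0.000395 and an adjusted p of 0.179 by edgeR, at position 37 of the 17296 genes ordered by p. DESeq2 gave an adjusted p of 1e-09, and with each library left out in turn edgeR's log2 fold change stayed between 2.27 and 2.86. On the FPKM scale, which divides by gene length, Acacb stood eighth of the 10 genes by its median in CONT (15.5 FPKM) and the fourth in CAC (92.1 FPKM). Of the 7 tested markers of skeletal muscle, 5 were higher in CAC. The myosin gene Myh4 (0.892, 0.613 and 0.0452 CPM in CONT, 2.30, 2.42 and 2.98 CPM in CAC, unadjusted p = 0.033 by edgeR) and the calcium pump gene Atp2a1 (0.994 ± 0.0522 CPM in CONT, 2.34 ± 0.932 CPM in CAC, SD, unadjusted p = 0.033 by edgeR) did not overlap. The summed level of the muscle markers did overlap, but Acta1 carried most of it in replicate 1 of each group (39.0 of 47.0 CPM in CONT, 40.1 of 49.5 CPM in CAC). No muscle marker other than Acta1 exceeded 3.40 CPM in any library, and the part of muscle RNA in the value of Acacb was not tested. The summed level of adipocyte markers overlapped between the groups. Acaca and Acacb overlap no other gene with more than 26 reads.

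The ratio of both genes within a library does not depend on how that library was scaled. It can still carry an effect of gene length, as Acaca has 17074 bases and Acacb 9632. In CONT replicate 1 their log2 CPM relative to the mean of the other CONT libraries was -1.70 and -0.89. The part of gene length in the ratio of that library was not tested. The FPKM of Acacb over that of Acaca was 0.659, 0.308 and 0.459 in CONT replicates 1 to 3, so that Acaca was the more abundant in all 3. In CAC replicates 1 to 3 the ratio was 2.35, 3.13 and 2.30, so that Acacb was the more abundant in all 3. Of the 17295 other tested genes, 4.8% had a ratio to Acaca that was higher in every CAC library than in every CONT library, and 4.8% one that was lower. The share of Acacb in the summed FPKM of both genes was 31.6% ± 8.09 in CONT and 71.9% ± 3.41 in CAC (SD, n = 3 each). The log2 ratio was 2.50 higher in CAC (1.36 ± 0.25 against -1.14 ± 0.55 in CONT, p = 0.1 by the exact permutation test), so that the ratio itself was 5.66 times as high. With each library left out in turn the difference stayed between 2.22 and 2.77. The summed FPKM of both genes was 26.1, 65.9 and 73.9 in CONT and 112, 149 and 132 in CAC, without overlap.

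**Figure D2:**
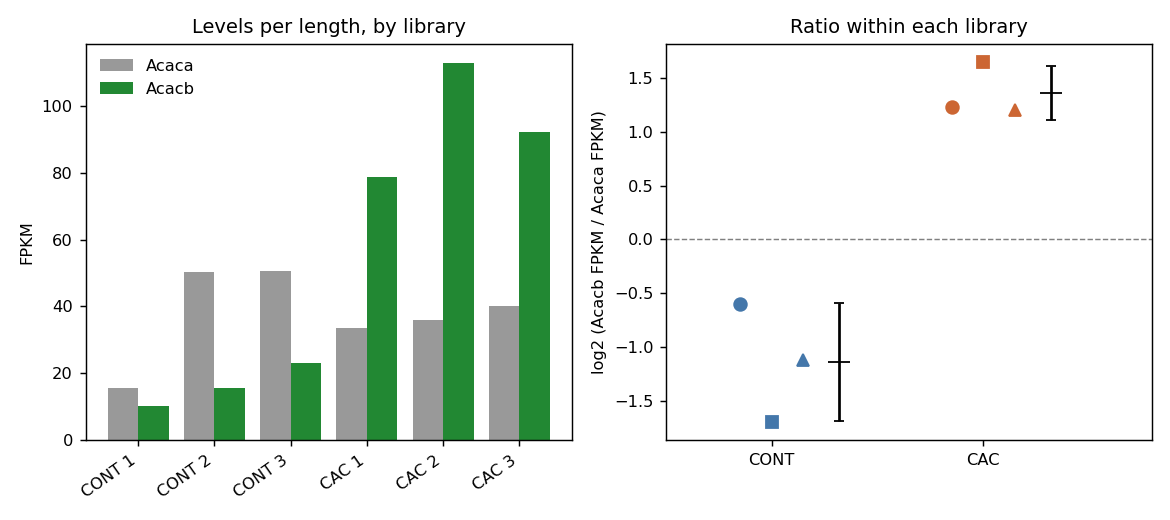
Left, FPKM of Acaca (grey) and Acacb (green) in each library. Right, log2 of Acacb FPKM over Acaca FPKM in each library (circle, square and triangle for replicates 1, 2 and 3) with the mean and SD of each group, all 3 CONT libraries being below 0 and all 3 CAC libraries above it.

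Counts were made per gene, so transcripts from different start sites of the carboxylase genes were not separated. The annotation (GENCODE M21, GRCm38) gives Acaca 7 protein-coding transcripts with 6 distinct starts and Acacb 3 protein-coding transcripts with 3 distinct starts, and up to 56 and 53 exons. The 150 bases before the RefSeq start of Acacb, chr5:114165368-114165517 on the plus strand, are shown as the upstream sequence of the gene with the largest difference, with capitals for a CCAAT box 87 bases and a TATA box (TATAAA, both strands) 34 bases before the start.
Acacb: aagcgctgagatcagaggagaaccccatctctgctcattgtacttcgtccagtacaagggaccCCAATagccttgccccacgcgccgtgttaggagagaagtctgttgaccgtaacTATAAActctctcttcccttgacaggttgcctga
Of all windows, 7.57% hold a TATA box, and among the 14 windows of the 10 genes this was the only one. This start lies within the gene's deposited span, and the gene counts do not show which start was used in fat.

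Fasn, fatty acid synthase (chromosome 11 from 120805846 to 120824547, minus strand), had the most CPM of the 10 genes, with 1850, 7800 and 6009 CPM in CONT and 2712, 2277 and 3249 CPM in CAC. CONT replicate 1 was below all 3 CAC libraries, while CONT replicates 2 and 3 were above them. Over all 6 libraries its log2 fold change was -0.93 (standard error 0.56, 95% confidence interval -2.27 to 0.41, adjusted p = 0.498 by edgeR). Without CONT replicate 1 edgeR gave -1.31 ± 0.28 (standard error), at an unadjusted p of 0.0055 and an adjusted p of 0.227 (DESeq2 -1.28, adjusted p 5.38e-06), and without CONT replicate 2 it was -0.52. In CONT replicate 1 Fasn lay 1.89 below the mean of the other CONT libraries on the log2 CPM scale, and 2.54% of the genes compared lay lower. Macrophage markers were also lowest in that library among the CONT libraries, and the part of this in the value of Fasn was not tested.
The 150 bases before the RefSeq start of Fasn, chr11:120824548-120824697 on the minus strand, are shown because Fasn is a well-known target of SREBP1. Capitals mark ATCACCC, the start of the sterol regulatory element of the LDL receptor gene, 129 bases before the start, and 3 CCAAT boxes, of which a forward and a reverse one overlap.
Fasn: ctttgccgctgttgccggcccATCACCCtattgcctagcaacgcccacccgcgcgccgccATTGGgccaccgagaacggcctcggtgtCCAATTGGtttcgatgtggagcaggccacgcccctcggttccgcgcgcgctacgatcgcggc
Of all windows, 1.36% hold ATCACCC on either strand, and Fasn was the only one of the 10 genes with it. An E-box (CACGTG), the core that ChREBP and other such factors recognise, was found in the window of Mlxipl alone of the 10 genes, against 4.3% of all windows.

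Me1, the cytosolic malic enzyme that yields NADPH (chromosome 9 from 86581371 to 86695953, minus strand), stood at 700, 677 and 485 CPM in CONT and at 370, 201 and 340 CPM in CAC. The groups did not overlap, and unlike the longer genes it was highest in CONT replicate 1. Me1 had a fitted difference of -1.03 ± 0.32 (log2, standard error), with an adjusted p of 0.288 in edgeR, and it stayed between -1.17 and -0.79 with each library left out. Thrsp, or Spot 14, a small protein that promotes lipogenesis and pairs with Mid1ip1 (chromosome 7 from 97412938 to 97417730, minus strand), stood at 1417, 1232 and 768 CPM in CONT and at 1248, 588 and 277 CPM in CAC. CAC replicate 1 lay within the CONT range, and the other CAC libraries lay below it. Its log2 difference in edgeR was -0.69 ± 0.57 (standard error), with an adjusted p of 0.613, and moved to -1.35 without CAC replicate 1 and to -0.30 without CAC replicate 3. Per length, Thrsp had the highest median of the 10 genes in both groups, 449 FPKM in CONT and 218 FPKM in CAC.

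Neither transcription factor gene was separated between the groups. Srebf1 (chromosome 11 from 60199089 to 60222581, minus strand) stood at 324, 376 and 545 CPM in CONT and at 401, 228 and 234 CPM in CAC. CAC replicate 1 lay within the CONT range, and the other CAC libraries lay below it, as for Thrsp. The log2 fold change was -0.53 (standard error 0.34, 95% confidence interval -1.34 to 0.28, adjusted p = 0.520 by edgeR). The counts do not separate the transcripts of SREBP1a and SREBP1c. Srebf1 touches Rai1 on the other strand, which held 6612 reads against 45896. Mlxipl (chromosome 5 from 135089890 to 135138382, plus strand) stood at 84.9, 114 and 84.3 CPM in CONT and at 82.0, 171 and 116 CPM in CAC. The highest and the lowest value were both in CAC, and the log2 fold change was 0.38 (standard error 0.31, 95% confidence interval -0.35 to 1.11, adjusted p = 0.606 by edgeR). It ran from 0.08 without CAC replicate 2 to 0.66 without CAC replicate 1. Per length, Mlxipl stood ninth of the 10 genes in both groups, with medians of 12.4 FPKM in CONT and 17.1 FPKM in CAC.

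**Figure D3:**
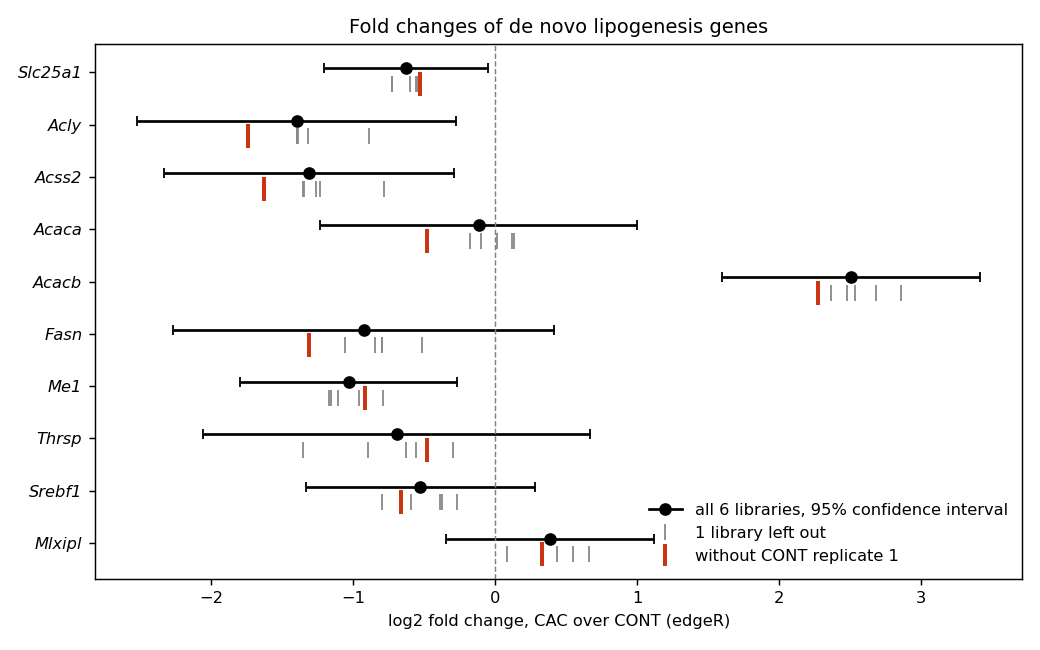
Log2 fold change of each gene, CAC over CONT, by edgeR with all 6 libraries (point, with 95% confidence interval) and with 1 library left out (ticks, red for CONT replicate 1). Acacb lies between 2.27 and 2.86 with any library left out, while leaving out CONT replicate 1 moves Acly, Acss2, Acaca and Fasn to lower values.

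Relative to the mean log2 CPM of the 10 adipocyte markers in the same library, which was 0.03 lower in CAC, the differences were 2.60 for Acacb, -1.17 for Acly, -1.10 for Acss2, -1.03 for Me1 and -0.60 for Slc25a1. These are differences of mean log2 CPM, a measure other than edgeR's fitted fold change. Acaca had 0.10 on that scale, where edgeR gave -0.12, and Fasn had -0.67, where edgeR gave -0.93. Since the markers moved by only 0.03, Acaca was already above 0 in mean log2 CPM before they were taken into account. The 10 genes together took 0.590%, 1.61% and 1.18% of the counts of nuclear genes in CONT and 0.733%, 0.705% and 0.727% in CAC. The CAC libraries were again close together, and the CONT libraries lay on both sides of them.

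Other genes around the pathway were taken from 8 lists with 69 genes, 68 of them tested, of which 35 were lower and 33 higher in CAC. Their median log2 fold change was -0.04. By edgeR, 7 lower and 8 higher genes reached an unadjusted p under 0.05 (background over all genes 6.95% and 6.31%), and 0 an adjusted one. Over all genes, 13.3% had such a p in either direction, which is the background of the counts for single lists. DESeq2 gave an adjusted p under 0.05 to 6 lower and 4 higher genes (background 2.55% and 3.25%). The lower ones were Mid1ip1, Prkag3, Insig1, Idh1, Elovl6 and Scd2, and the higher ones Mlxip, Slc25a20, Acss3 and Dlat. Among the regulators of acetyl-CoA carboxylase, 2 of 13 genes had an unadjusted p under 0.05, both lower. Mid1ip1 (MIG12), which binds the carboxylase and favours its active polymers, stood at 110, 74.1 and 91.9 CPM in CONT and at 27.3, 28.6 and 37.7 CPM in CAC. The groups were far apart, by -1.56 ± 0.23 on the log2 scale (standard error), with an adjusted p of 0.177 in edgeR and of 9.8e-06 in DESeq2. The other was Prkag3, a subunit of AMPK, the kinase that inhibits the carboxylases, with a log2 fold change of -3.02 at low levels that overlapped, 9.36, 2.50 and 0.723 CPM in CONT and 0.821, 0.444 and 0.264 CPM in CAC, the highest being CONT replicate 1. The 6 other tested AMPK subunit genes had log2 fold changes between -0.18 and 0.32.

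In the list of SREBP processing and LXR, 1 of 11 genes had an unadjusted p under 0.05. This was Insig1, a target of SREBP that retains its precursor in the endoplasmic reticulum, which stood at 124, 180 and 161 CPM in CONT and at 48.6, 65.5 and 86.1 CPM in CAC. The groups did not overlap, and their log2 difference was -1.22 ± 0.27 (standard error), with an adjusted p of 0.228 in edgeR and of 0.0030 in DESeq2. Among the partners and targets of ChREBP, 3 of 6 genes had an unadjusted p under 0.05. Mlxip, the related factor MondoA, had a log2 fold change of 0.93 without overlap. Txnip, a thioredoxin-binding protein induced by both factors, had 1.02 with overlapping libraries. Pklr, the liver pyruvate kinase and a ChREBP target, had -3.59 at a CONT mean of 7.40 CPM, and CONT replicate 1, at 0.0892 CPM, was below the CAC libraries.

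Among the genes of NADPH supply, 2 of 9 had an unadjusted p under 0.05. Idh1, the cytosolic isocitrate dehydrogenase, had -0.53 ± 0.18 (log2 fold change and standard error) with 231 to 248 CPM in CONT and 157 to 171 CPM in CAC, and Mdh1, the cytosolic malate dehydrogenase, had 1.13 ± 0.42. The groups did not overlap in either gene. G6pdx and Pgd, the oxidative enzymes of the pentose phosphate pathway, had log2 fold changes of -0.18 and -0.50 with overlapping libraries. In the list of malonyl-CoA use and sensing, 1 of 6 tested genes had an unadjusted p under 0.05, the carnitine and acylcarnitine carrier Slc25a20, with a log2 fold change of 0.93 and no overlap. Cpt1a, the carnitine palmitoyltransferase inhibited by malonyl-CoA, had -0.72 (standard error 0.47) with overlapping libraries, and Mlycd, which breaks malonyl-CoA down, had 0.66 (standard error 0.35). Cpt1b, the muscle form, was not tested, with a mean of 0.234 CPM in CONT.

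Of 9 genes of chain elongation and desaturation, 3 had an unadjusted p under 0.05. Elovl6, which lengthens the palmitate made by Fasn, stood at 82.4, 174 and 165 CPM in CONT and at 19.5, 21.7 and 44.0 CPM in CAC. Its adjusted p was 0.215 in edgeR and 4.7e-05 in DESeq2. The desaturase Scd2 had a log2 fold change of -2.04, and neither gene overlapped between the groups. Hsd17b12, the ketoacyl-CoA reductase of elongation, had 1.01 without overlap. Scd1 had a log2 fold change of -1.58 with a standard error of 0.99 and overlapping libraries. Of the 8 other genes of acetyl-CoA supply and use, 3 had an unadjusted p under 0.05, all higher. Acss3, a mitochondrial acyl-CoA synthetase of the same family as Acss2, stood at 24.3, 55.2 and 83.3 CPM in CONT and at 184, 225 and 236 CPM in CAC. Its log2 difference was 1.98 ± 0.44 (standard error), opposite in sign to that of Acss2, with an adjusted p of 0.228 in edgeR and of 0.00062 in DESeq2. Dlat, a subunit of pyruvate dehydrogenase, had a log2 fold change of 0.81. Of the 6 genes of mitochondrial fatty acid synthesis, 0 reached an unadjusted p under 0.05 in edgeR, 0 an adjusted one in DESeq2, and their median log2 fold change was 0.01. The smallest p there was that of Mcat, with a log2 fold change of 0.31.

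**Figure D4:**
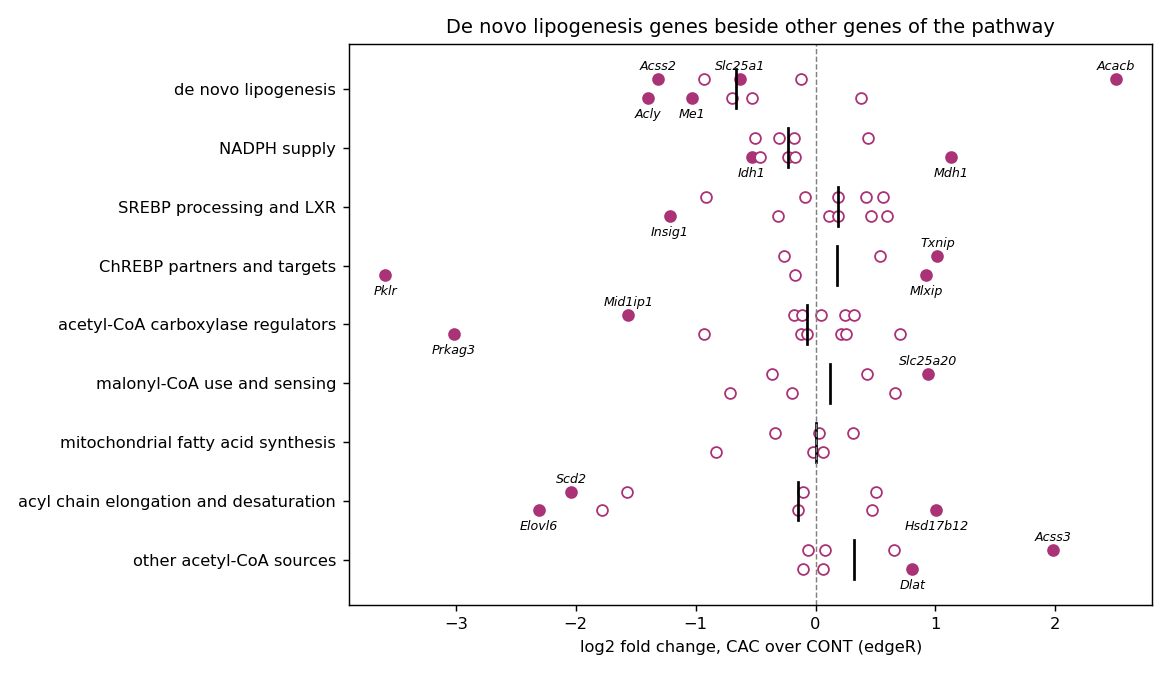
Log2 fold change of the tested genes, CAC over CONT, by edgeR, for the 10 de novo lipogenesis genes and 8 other lists, with 1 gene of the last list not drawn. Filled and named points have an unadjusted p under 0.05 and bars are medians over all tested genes of a list, which run from -0.66 for de novo lipogenesis to 0.32 for other acetyl-CoA sources.

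The genes most like Acacb, Acaca and Fasn were sought among 10408 other genes with a mean log2 CPM of at least 3, by the root mean square difference over the 6 libraries of log2 CPM centred on the CONT mean. Closest to Acacb were Slc27a1, a fatty acid transport protein (0.19), Mycl (0.27), Chac1 (0.29) and Net1 (0.32), with log2 fold changes from 2.49 to 2.67. Closest to Acaca were N4bp2, Tnfrsf11a and Slc19a1, at differences of 0.13 to 0.14. Closest to Fasn were Clec4a1 (0.15), Cmah (0.20), Clec4a3 (0.21) and Pld4 (0.24), with log2 fold changes from -1.05 to -0.76. Clec4a1 and Clec4a3 are receptor genes of myeloid cells, and like Fasn they were lowest in CONT replicate 1, Clec4a1 with 5.89, 27.5 and 23.2 CPM in CONT and 10.3, 7.67 and 9.36 CPM in CAC.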

How the data were processed

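RNA of eWAT from 6 mice was sequenced as poly(A) libraries. The authors mapped cleaned reads to the Ensembl mouse genome, and the submitters' processing notes name HISAT2 2.0.5 and featureCounts 1.5.0-p3. The deposited counts are raw and whole. In the deposited FPKM values these counts were scaled to gene length and to totals of 13817709 to 32509179 per library, which are not the sums of the counts.

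Counts were tested in R 4.3.3 with edgeR 4.0.16 (quasi-likelihood, robust, TMM, filter by group, condition as the only term, Benjamini-Hochberg adjustment over 17296 genes, common dispersion 0.265), with DESeq2 1.42.0 and limma 3.58.1 as alternatives. A call was an adjusted p under 0.05. CPM used TMM-adjusted library sizes. Standard errors were derived from the quasi-likelihood F statistic. Nothing says more about the replicates than that each is a separate mouse. Scripts were tested on simulated data.

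The 10 genes and the lists were chosen with earlier results of these data known. From each list were named the genes with an unadjusted p under 0.05 (at most 4), or else the 1 with the smallest p, and the 4 genes most like Acaca, Fasn and Acacb, except that 2 genes this rule gives are not reported here. Other genes named with values (Pnpla2, Ucp1, Crisp1, Cox7a1, Myh4, Atp2a1, Acta1, G6pdx, Pgd, Cpt1a, Cpt1b, Mlycd and Scd1) were chosen after their values were seen, as were the ratios other than Acacb over Acaca. Hsd17b8 was matched by its older symbol. Upstream sequences are from RefSeq, GRCm38.p6, with 14 windows for all 10 genes. Samples with the same replicate number were not treated as pairs.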

Additional observations from a re-analysis of the deposited data

How the results depend on the processing

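At 3 mice per group the number of calls differed between methods. The number of the 10 genes with an adjusted p under 0.05 was 0 in each edgeR fit and in limma on FPKM, 3 with DESeq2 and 3 with voom. For the other genes of the lists it was 10 with DESeq2 and 9 with voom. For all genes it was 929 with DESeq2, 953 with voom, 5 in limma with 1 added to the FPKM and 6 with 0.1 added. Leaving out CONT replicate 1, DESeq2 called 5 of the 10 genes (Acaca, Acacb, Fasn, Acly and Acss2), 21 other list genes and 2949 of all 19459 genes fitted. These counts were 1, 3 and 441 (of 17859) when CONT replicate 2 was left out. They were 3, 9 and 811 (of 19274) when it was CONT replicate 3 (Acacb, Me1 and Slc25a1). They were 4, 12 and 1426 (of 19194) when it was CAC replicate 1 (Acacb, Me1, Thrsp and Slc25a1). For CAC replicate 2 they were 1, 9 and 634 (of 19129), and for CAC replicate 3 they were 1, 6 and 498 (of 17928). The number of the 10 genes lower in CAC was 7 or 8 throughout. Acaca was the only one of the 10 to change direction. Its log2 fold change was 0.079 and 0.088 in the FPKM fits and 0.10 relative to adipocyte markers, all of which are differences of mean log2 values. With 1 library left out it ran from -0.48 to 0.13 in edgeR, and in DESeq2 from -0.45 without CONT replicate 1, where alone it was called (adjusted p 0.014), to 0.13 without CONT replicate 2 and 0.15 without CONT replicate 3. The cause was not tested. An offset for gene length, chosen after the data were seen, gave -0.21 for Acaca, 2.42 for Acacb and -0.97 for Fasn.

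The replicate numbers did not pair the samples, since the deviations of CONT and CAC libraries with the same number had correlations across genes of 0.31, -0.15 and -0.22, and only replicate 1 correlated best with its own number in the other group. With the replicate block, 1 gene over all genes and 0 of the 10 had an adjusted p under 0.05, 7 of the 10 were lower, and Acaca had a log2 fold change of 0.057.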

Other observations

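Measured against Acaca in the same library, 3 of the 8 other lipogenic genes were lower in every CAC library than in every CONT library (background over all tested genes 4.8%) and 5 overlapped. These ratios were computed after the values had been seen, and 8 log2 ratios were tested in all. Fasn had 8.71, 11.3 and 8.70 times the FPKM of Acaca in CONT and 6.09, 4.69 and 6.04 times in CAC. The 3 CAC ratios were below the 3 CONT ratios, including CONT replicate 1, in which both genes were low (log2 difference -0.77, p = 0.1 by the exact permutation test, its smallest value, and 0.2 after adjustment). Acly had 3.03, 3.47 and 2.13 times the FPKM of Acaca in CONT and 1.26, 1.18 and 1.07 times in CAC, a log2 difference of -1.27 with the same p. Acss2 had 0.400, 0.418 and 0.238 times in CONT and 0.161, 0.141 and 0.143 times in CAC, a log2 difference of -1.21 with the same p. The ratios of Me1, Thrsp and Slc25a1 to Acaca overlapped and were not tested, each being highest in CONT replicate 1, where they were 9.37, 33.4 and 13.3, against 1.18 to 2.79, 2.57 to 14.0 and 2.72 to 4.34 in the other 5 libraries. Srebf1 and Mlxipl over Acaca overlapped between the groups as well, with log2 differences of -0.61 and 0.27 (exact permutation test, p = 0.3 and p = 0.7).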
